A study of Mus musculus with 80 samples.

Results

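Fgf21, Gdf15, Angptl4, Igfbp1 and Igfbp2 encode proteins that the liver can release into the blood to act on metabolism elsewhere. They were picked by symbol, and the 5 genes were all present among the 18877 genes of the count table for di(2-ethylhexyl) phthalate (DEHP) and the 17672 genes of that for dichloroacetic acid (DCA). The livers were those of male B6C3F1 mice, a hybrid laboratory strain, with an age of 4 weeks in the labels. DEHP, a plasticizer whose metabolite activates the nuclear receptor PPAR alpha, was mixed into feed for 7 days at 0, 1500, 3000 or 6000 ppm, with 4 mice at each dose and livers collected in 2013. DCA, an inhibitor of pyruvate dehydrogenase kinase, was dissolved in drinking water at 0, 1, 2 or 3.5 g/L, with 6 mice at each dose and livers collected in 1994, and the labels give no duration for it. Every liver yielded a frozen library of mixed lobes and a library of formalin-fixed, paraffin-embedded (FFPE) tissue of named lobes, so the 40 mice gave 80 libraries. Control mice received the same feed or water route at dose 0, and no group carried a genetic change. Whole liver was sequenced, so fewer cells of a type and less RNA per cell cannot be told apart.

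FGF21 signals through FGF receptors bound to the co-receptor beta-Klotho and is known as a liver hormone of fasting and nutrient stress. GDF15 is a stress cytokine that acts through GFRAL and RET in the hindbrain to lower food intake. ANGPTL4 inhibits lipoprotein lipase, the enzyme that releases fatty acids from circulating triglyceride, and is a classic PPAR target. IGFBP1 and IGFBP2 bind insulin-like growth factors in blood. Insulin represses hepatic Igfbp1 through FoxO factors, and both binding proteins are known to rise in fasting.

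All 5 are protein-coding genes, placed here on mouse build GRCm38 (mm10) with the GENCODE annotation. Fgf21 lies on chromosome 7 from 45613886 to 45615490 on the minus strand. Gdf15 lies on chromosome 8 from 70629393 to 70632456, also on the minus strand. Angptl4 lies on chromosome 17 from 33773750 to 33781830 on the minus strand. Igfbp1 lies on chromosome 11 from 7197782 to 7202546 on the plus strand, and Igfbp2 lies on chromosome 1 from 72824503 to 72852474 on the plus strand.

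The table of RefSeq promoters for GRCm38.p6 matched 4 of the 5 members, with 6 windows of 250 bases before a transcript start, and the member with no window was Angptl4. The windows were searched on both strands for the core element of nuclear receptors (AGGTCA), the direct repeat that PPAR binds (2 core elements on 1 strand with any 1 base between them, so each match also counts as a core element), a stress response element (TGATGNAA) and an insulin response element (CAAAACA). Of 32851 windows of the same length in the table, 14% held the core element, 0.0335% the direct repeat, 3.45% the stress element and 5.56% the insulin element. The 3 windows below belong to genes that were all higher at 3.5 g/L DCA, and they are shown because each holds 1 of the motifs, in capitals, written 5′ to 3′ on the strand of the gene.
Fgf21, chr7:45615491-45615740, minus strand: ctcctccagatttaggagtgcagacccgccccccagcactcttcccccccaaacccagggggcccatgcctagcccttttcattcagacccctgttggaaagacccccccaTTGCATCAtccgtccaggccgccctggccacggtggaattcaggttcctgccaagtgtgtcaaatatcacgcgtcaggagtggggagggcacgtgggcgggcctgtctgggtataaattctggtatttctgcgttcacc
Gdf15, chr8:70632457-70632706, minus strand: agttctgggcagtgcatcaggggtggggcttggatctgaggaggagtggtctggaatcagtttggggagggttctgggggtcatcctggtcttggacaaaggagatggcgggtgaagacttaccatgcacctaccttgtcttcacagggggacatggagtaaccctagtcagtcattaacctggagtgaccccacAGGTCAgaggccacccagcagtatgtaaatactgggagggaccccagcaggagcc
Igfbp1, chr11:7197537-7197786, plus strand: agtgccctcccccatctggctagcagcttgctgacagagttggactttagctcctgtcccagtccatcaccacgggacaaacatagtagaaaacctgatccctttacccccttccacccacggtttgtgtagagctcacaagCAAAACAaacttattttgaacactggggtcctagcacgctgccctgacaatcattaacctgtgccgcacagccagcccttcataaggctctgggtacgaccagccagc
The capitals in the Fgf21 window are a match to the stress element on the opposite strand, 139 to 132 bases before the start. Those in the Gdf15 window are the core element, 55 to 50 bases before the start, and those in the Igfbp1 window are the insulin element, 108 to 102 bases before it. Both Igfbp2 windows and the other Gdf15 window held none of the 4 motifs. A match describes these letters and is not a binding site.

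The members differed widely in level. Levels between genes are compared as the authors' FPKM values (fragments scaled by transcript length and sequencing depth), which allow for transcript length. In frozen livers of DEHP controls, Igfbp2 was highest at 106 ± 25.4 FPKM (mean ± SD, n = 4), followed by Igfbp1 at 41.4 ± 7.55 and Angptl4 at 30.5 ± 25.9 FPKM. The ranges of Igfbp1 and Angptl4 overlapped, so these neighbours in the order did not separate. Fgf21 was low at 4.96 ± 3.77 FPKM, and Gdf15 was lowest at 0.480 ± 0.240 FPKM. In frozen livers of DCA controls Igfbp2 was again highest but the pairs below it changed places, with Igfbp2 at 132 ± 48.1 FPKM (n = 6), Angptl4 at 46.0 ± 7.26, Igfbp1 at 10.4 ± 5.30, Gdf15 at 0.885 ± 0.310 and Fgf21 at 0.278 ± 0.198 FPKM. The ranges of Igfbp2 and Angptl4 overlapped there, as did those of Gdf15 and Fgf21. All 6 of those Fgf21 values lay below all 4 values of the DEHP controls, but the studies differ in year, route and sequencing batch, and these cannot be told apart from the mice themselves.

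**Figure D1:**
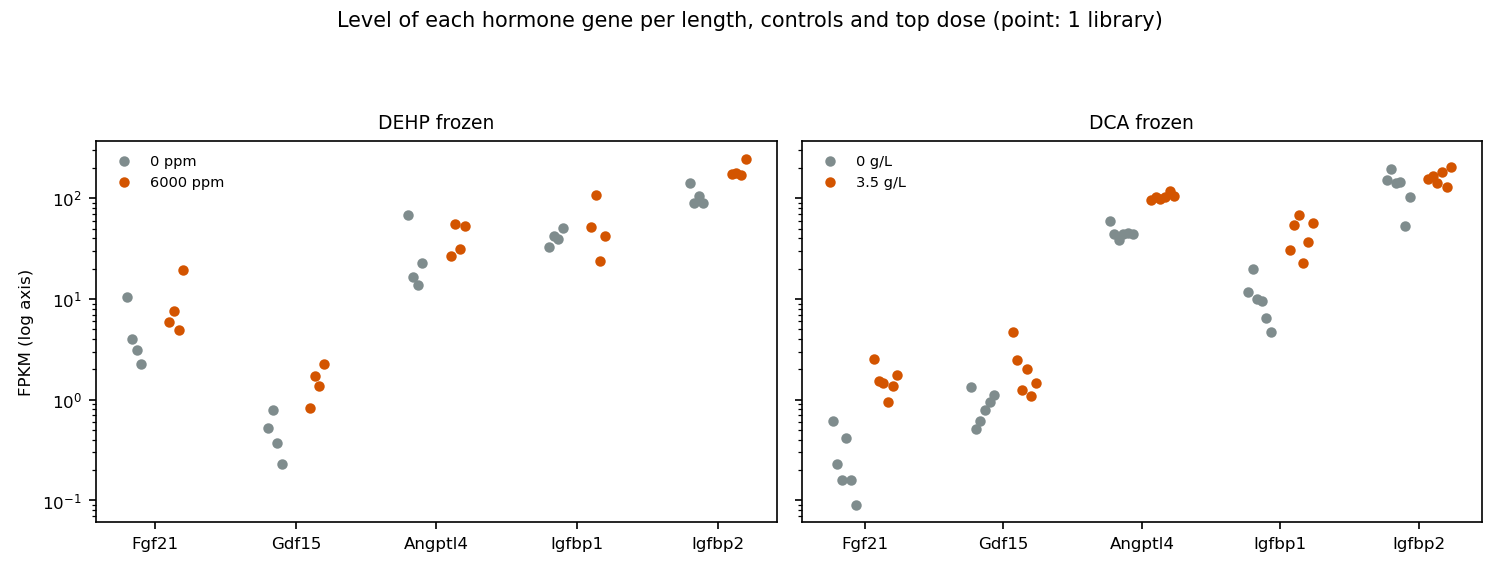
Level of each gene in frozen liver in FPKM on a log axis, at dose 0 and the top dose of each chemical, with a point per library. Igfbp2 sits highest in both control groups, and Fgf21 of the DCA controls sits lowest, at 0.278 ± 0.198 FPKM.

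Summed over genes, frozen libraries held 16582951 to 29550616 counts for DEHP and 3067666 to 16890024 for DCA, and FFPE libraries 11673034 to 18866106 for DEHP and 109292 to 8434613 for DCA. Albumin, the defining hepatocyte transcript, reached 20533 to 81501 CPM (counts relative to library size, with TMM scaling) in all sets but the last, where it was 2332 to 17967 CPM. Skeletal muscle markers summed to 1539 and 87.0 CPM in frozen DCA controls 5 and 6 and to 58.6 CPM in frozen DEHP control 45C. In frozen DCA liver all 3.5 g/L libraries shared 1 sequencing lane with 3 of the 6 libraries at 2 g/L, and all controls shared another, so the effect of the lane cannot be told apart from that of the top dose. Of the lower doses, only library 49 at 1 g/L was on the lane of the controls, so lane and dose are largely confounded there too. In frozen DEHP liver only libraries 72B at 1500 ppm, 35A at 3000 ppm and 8C at 6000 ppm were in a sequencing run that held controls. Run and dose are thus largely confounded in that set as well. Frozen and FFPE libraries of DEHP mice 35A and 67C, both at 3000 ppm, did not pair over all genes. A gene is called below where the Benjamini-Hochberg adjusted p over all genes tested, from edgeR's quasi-likelihood test, was under 0.05, and background is the share of all genes tested that met the same criterion.

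Igfbp2, a growth factor binding protein, was called higher at every DEHP dose. In frozen liver the controls held 181, 119, 134 and 122 CPM, and the 1500 ppm mice held 209.8, 191, 208 and 258 CPM. The 3000 ppm mice held 231, 176, 192 and 191 CPM, and the 6000 ppm mice 218, 219, 214 and 313 CPM. All treated libraries except 67C at 3000 ppm lay above the highest control, 32A. The log2 fold change was 0.64 ± 0.16 (SE) at 1500 ppm (edgeR adjusted p = 0.0232), 0.51 ± 0.16 at 3000 ppm (edgeR adjusted p = 0.0400) and 0.79 ± 0.16 at 6000 ppm (edgeR adjusted p = 0.00350), a 1.73-fold rise at the top dose with a 95% interval from 1.38 to 2.19. Its FPKM level rose from 106 ± 25.4 to 192 ± 36.1 (n = 4). No step between neighbouring doses was called for it or any other member in edgeR, nor for any other gene (0.00%). At an unadjusted p under 0.05 no member passed either, while 2122 of all genes did from 1500 to 3000 ppm and 1746 from 3000 to 6000 ppm. From 3000 to 6000 ppm the Igfbp2 interval was -0.04 to 0.62, which allows a further rise. Its slope of 0.11 ± 0.03 log2 units per 1000 ppm missed the threshold (edgeR adjusted p = 0.0712), which 2.61% of genes passed. The call at 6000 ppm held without any single library. At 1500 ppm it was lost without 45C, 63A, 75A, 60A or 72B (edgeR adjusted p 0.0519 to 0.0661), and at 3000 ppm without 45C, 63A, 75A, 60A, 35A, 71A or 9A (0.0534 to 0.0976). The slope passed without 72B (0.0323) or 29B (0.0387).

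**Figure D2:**
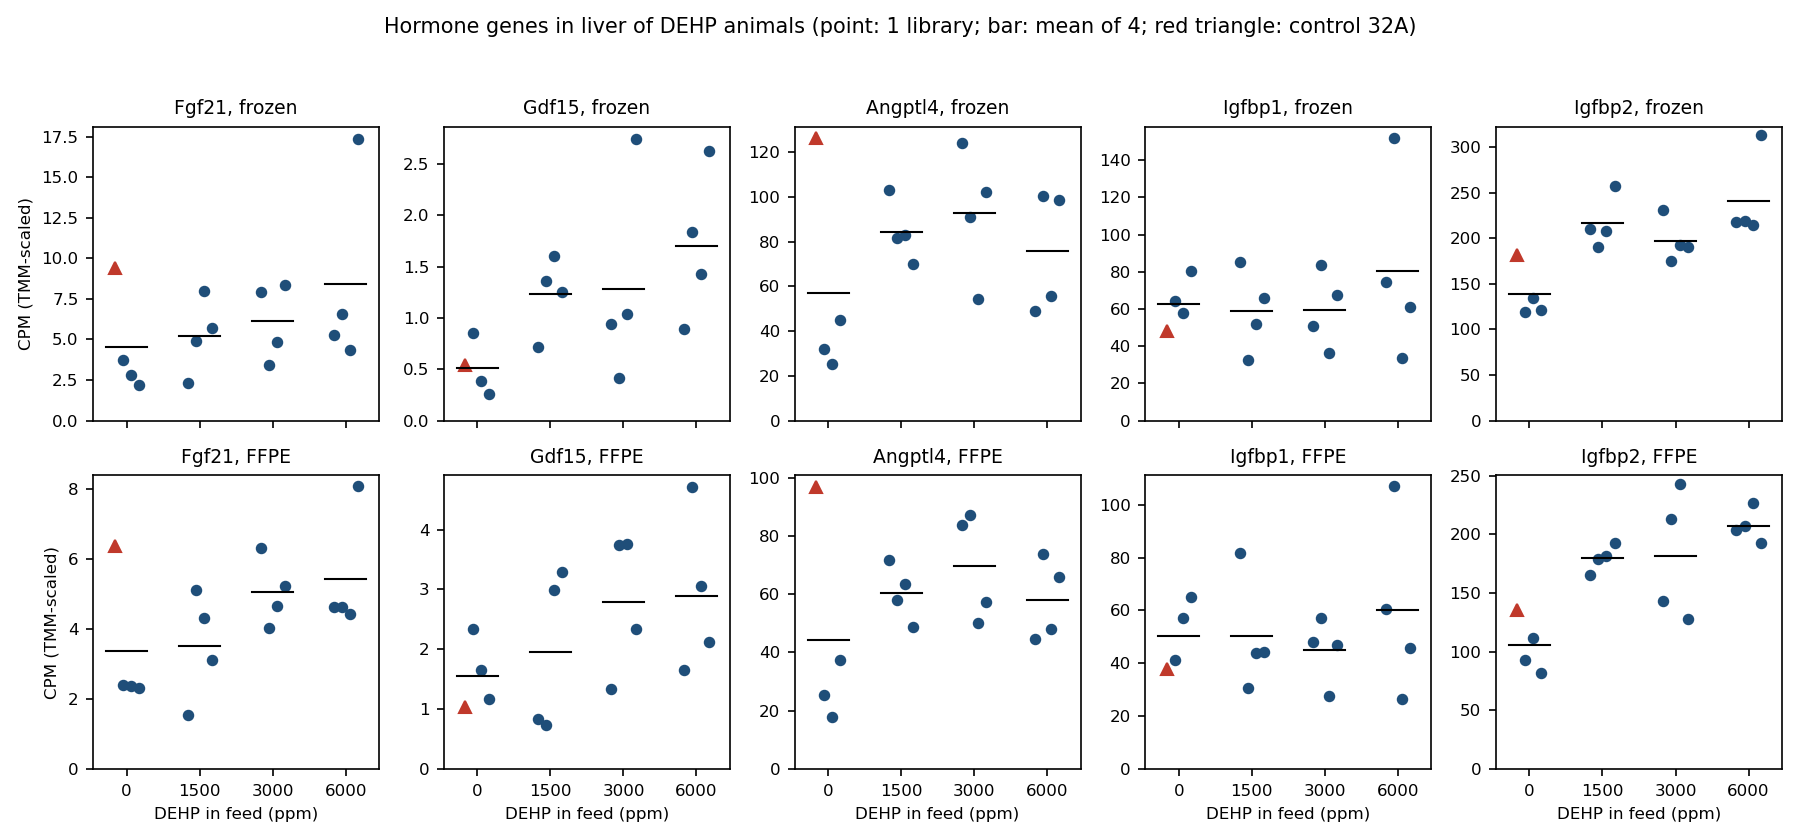
CPM of each member by DEHP dose in frozen (upper row) and FFPE liver (lower row), with 1 point per mouse, a bar at the mean of the 4 mice and a red triangle for control 32A. The Igfbp2 mean is higher than in controls at every dose in both preparations, while control 32A stands above the other controls for Angptl4 and Fgf21.

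Gdf15 was at the edge of detection in untreated liver and higher after DEHP. The frozen controls held 0.542, 0.854, 0.382 and 0.255 CPM, from 4 to 23 counts each and 48 in all. Gdf15 thus passed the filter on low counts mainly through the treated libraries, and its folds rest on few counts. The 1500 ppm mice held 0.717, 1.36, 1.60 and 1.25 CPM, and the 3000 ppm mice 0.944, 0.411, 1.04 and 2.74 CPM. At 6000 ppm the values were 0.896, 1.84, 1.43 and 2.62 CPM, from 151 counts. The groups at 0 and 6000 ppm did not overlap, and at each lower dose 3 of the 4 mice lay above every control. The top dose was called at a log2 fold change of 1.69 ± 0.51 (edgeR adjusted p = 0.0405; 3.23-fold, 95% interval 1.52 to 6.86). The lower doses were not, at 1.23 ± 0.52 (edgeR adjusted p = 0.182) and 1.29 ± 0.52 (edgeR adjusted p = 0.104). The call at 6000 ppm is fragile: it was lost without 32A, 63A, 75A, 60A, 71A, 44A, 64C or 8C (edgeR adjusted p 0.0501 to 0.143), with the other deposited count table (0.0648) and with sequencing run as a term (0.161). The 3000 ppm dose was called without 67C (1.60, edgeR adjusted p = 0.0480).

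Angptl4, the lipoprotein lipase inhibitor, was not called at any DEHP dose. Its frozen controls held 127, 32.1, 25.4 and 45.0 CPM, and the 1 high value was that of mouse 32A. The 1500 ppm mice held 103, 81.8, 83.1 and 70.0 CPM. The 3000 ppm mice held 124, 91.2, 54.4 and 102 CPM, and the 6000 ppm mice 48.9, 100.4, 55.9 and 98.7 CPM. All 12 treated mice lay above the other 3 controls and below 32A. The log2 fold changes were 0.56 ± 0.40, 0.70 ± 0.40 and 0.41 ± 0.40 in order of dose (edgeR adjusted p 0.462, 0.253 and 0.582). With sequencing run as a term the 1500 ppm value was 1.57 and passed (edgeR adjusted p = 0.0493). Without 32A the 3 values were 1.33, 1.45 and 1.18 and all passed (edgeR adjusted p 0.00903, 0.00324 and 0.0140). The same mouse was the high one in FFPE tissue, where controls held 96.9, 25.4, 17.8 and 37.3 CPM, and leaving it out gave 1.17, 1.38 and 1.11 (edgeR adjusted p 0.0110, 0.00250 and 0.0103).

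Fgf21, the fasting hormone, was not called at any DEHP dose either, and 32A was again the highest control. The frozen controls held 9.41, 3.75, 2.79 and 2.17 CPM, with 32A highest, and the 1500 ppm mice held 2.29, 4.93, 8.00 and 5.69 CPM. The 3000 ppm mice held 7.93, 3.41, 4.82 and 8.36 CPM, and the 6000 ppm mice 5.29, 6.57, 4.36 and 17.4 CPM. Only 8C at 6000 ppm lay above every control, and the groups overlapped at each dose. The top-dose log2 fold change of 0.89 ± 0.50 was not called (edgeR adjusted p = 0.278), with a 95% interval from -0.16 to 1.94. Without 32A it was 1.53 in frozen liver (edgeR adjusted p = 0.0494) and 1.20 in FFPE liver (edgeR adjusted p = 0.0246).

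Control 32A stood apart in other genes too, a comparison made after its values were seen. In frozen liver it was the highest of the 4 controls in 15 of 15 PPAR alpha targets tested, against 28.1% of all 13802 genes tested, and in FFPE liver in 14 of 15, against 26.9% of 13581. Its Cyp4a14, a fatty acid hydroxylase and classic PPAR alpha target, was at 131 CPM in frozen liver, against 13.5, 0.688 and 10.5 CPM in the other controls. In frozen liver it was also the lowest control in 11 of 11 Kupffer cell markers, against 28.9% of all genes. The part of these differences in the Angptl4 and Fgf21 results was not tested.

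Igfbp1, the insulin-repressed binding protein, was not called at any DEHP dose. Its frozen controls held 48.1, 64.5, 57.8 and 80.6 CPM, and the 1500 ppm mice held 85.3, 32.4, 52.2 and 66.0 CPM. The 3000 ppm mice held 50.7, 83.9, 36.2 and 67.3 CPM, and the 6000 ppm mice 74.5, 152, 33.8 and 61.3 CPM. The groups overlapped throughout, and 44A at 6000 ppm was the highest of all 16 mice. The log2 fold changes were -0.09 ± 0.37, -0.07 ± 0.37 and 0.36 ± 0.37 (edgeR adjusted p 0.923, 0.919 and 0.605), with a 95% interval at the top dose from -0.42 to 1.14. Without 44A the last was -0.15.

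Markers of other cells in frozen DEHP liver are set beside these results. Adipocyte markers summed to 8.69 to 20.2 CPM in controls and 21.6 to 27.5 CPM at 6000 ppm, where Plin1 was at 0, and 1 of 2 tested was called higher. Kupffer cell markers summed to 198 to 323 CPM and 259 to 404 CPM, with none of 11 called or past an unadjusted p under 0.05 in edgeR, and of 9 hepatocyte markers 3 were called lower. Their part in the member results was not tested.

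In frozen liver 1 of the 5 members was thus called higher at 1500 ppm, where 4.34% of all 13802 genes tested were, 1 at 3000 ppm (background 8.17%) and 2 at 6000 ppm (background 7.05%). No member was called lower, against 2.14%, 6.48% and 4.72% of genes. Groups did not overlap for Igfbp2 at 1500 ppm (background 7.50%), for none at 3000 ppm (background 10.8%) and for Igfbp2 and Gdf15 at 6000 ppm (background 8.14%). The median log2 fold change of the 5 members at 6000 ppm was 0.79, beside -0.03 over all genes tested.

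FFPE liver of the same mice gave a like picture for Igfbp2. Its controls held 135, 93, 111 and 82.2 CPM, the 1500 ppm mice 165, 179, 181 and 193 CPM, the 3000 ppm mice 143, 213, 242 and 128 CPM, and the 6000 ppm mice 204, 207, 227 and 192 CPM. The only treated mouse not above every control was 9A at 3000 ppm. The log2 fold changes were 0.77 ± 0.19, 0.78 ± 0.19 and 0.98 ± 0.19 (edgeR adjusted p 0.0218, 0.0127 and 0.00250). The 1500 ppm call was lost without 45C, 63A, 75A, 40A, 60A or 72B (edgeR adjusted p 0.0535 to 0.0796) and the 3000 ppm call with only the 2 groups compared (0.0803), and the slope, at 0.13 ± 0.04 per 1000 ppm (edgeR adjusted p = 0.0540, background 3.59%), passed without 40A, 72B, 9A or 29B (0.0438 to 0.0496). Igfbp2 was the only member called in FFPE liver at each dose, where 4.55%, 6.15% and 7.94% of 13581 genes were called higher.

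The other 4 members were not called in FFPE liver at any dose. Gdf15 held 1.04, 2.34, 1.66 and 1.17 CPM in controls and 1.66, 4.71, 3.06 and 2.13 CPM at 6000 ppm, a log2 fold change of 0.88 ± 0.48 (edgeR adjusted p = 0.250) with overlapping groups. Fgf21 held 6.39, 2.39, 2.38 and 2.33 CPM in controls and 4.62, 4.64, 4.44 and 8.08 CPM at 6000 ppm, a change of 0.71 ± 0.36 (edgeR adjusted p = 0.223). Fgf21 was also called at 3000 ppm without 32A (1.10, edgeR adjusted p = 0.0428). Angptl4 read 0.39 ± 0.37 (edgeR adjusted p = 0.548) and Igfbp1 0.25 ± 0.36 (edgeR adjusted p = 0.701) at 6000 ppm, the latter -0.18 without 44A.

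**Figure D3:**
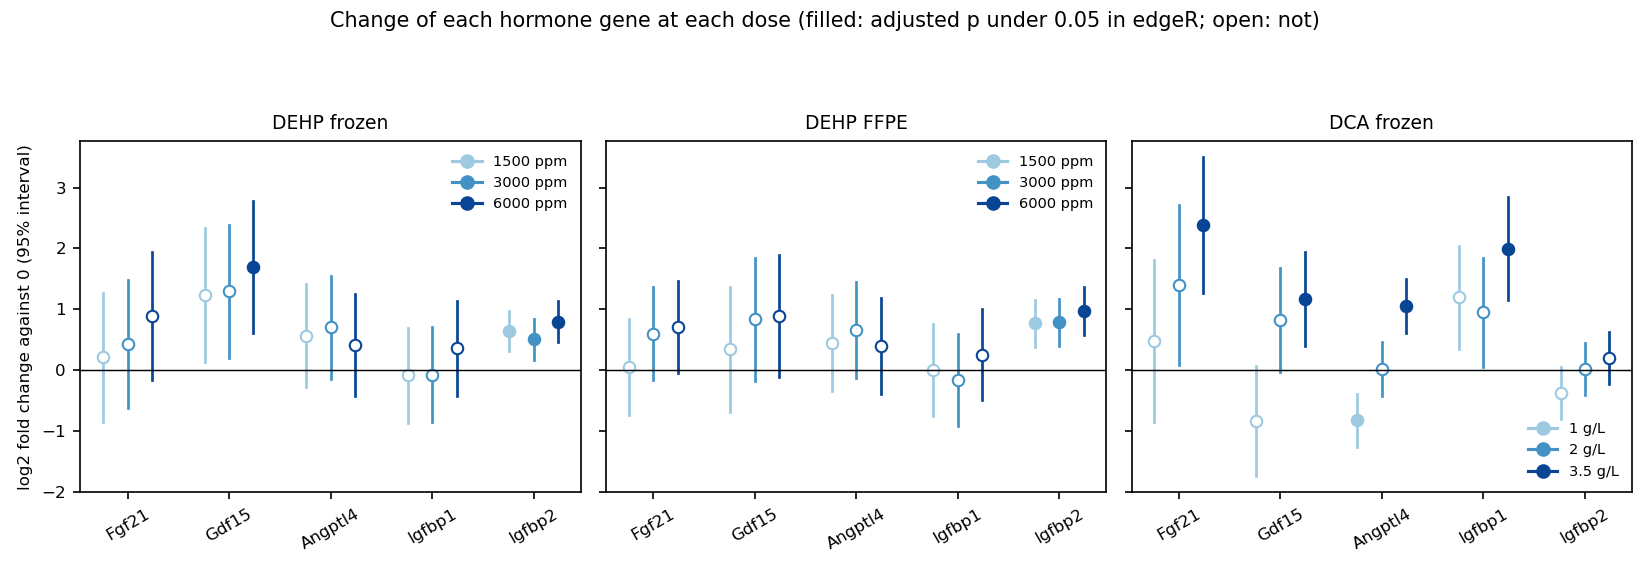
Log2 fold change against dose 0 for each member and dose in DEHP frozen, DEHP FFPE and DCA frozen liver, with 95% intervals from edgeR and filled symbols for adjusted p under 0.05. The Igfbp2 intervals exclude 0 at every DEHP dose, and at 3.5 g/L DCA those of the other 4 members do.

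In frozen livers of the DCA mice 4 of the 5 members were higher at 3.5 g/L, and Igfbp2, which was called at every DEHP dose, was not among them. Gdf15 was called at the top dose of both chemicals in frozen liver, but the DEHP call was fragile and the DCA call was lost without mouse 97. At 3.5 g/L 21.9% of all 13089 genes tested were called higher and 21.1% lower. The 4 were the 2 hormones Fgf21 and Gdf15, the lipase inhibitor Angptl4 and the binding protein Igfbp1.

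Angptl4 fell at the lowest dose and rose at the highest. The controls ran from 70.1 to 109.5 CPM with a median of 83.2, and the 1 g/L mice from 36.9 to 64.1 CPM with a median of 47.3. The 2 g/L mice ran from 38.4 to 127 CPM with a median of 101, and the 3.5 g/L mice from 161 to 196 CPM with a median of 175. All 6 mice at 1 g/L lay below every control (background 2.25%), and all 6 at 3.5 g/L lay above every mouse of the other groups (background 11.3% against dose 0 and 2.49% against 2 g/L). The log2 fold change was -0.83 ± 0.21 at 1 g/L (edgeR adjusted p = 0.0157), 0.02 ± 0.22 at 2 g/L (edgeR adjusted p = 0.958) and 1.05 ± 0.21 at 3.5 g/L (edgeR adjusted p = 2.99e-04), a 2.07-fold rise with a 95% interval from 1.53 to 2.81. Mean FPKM was 46.0 ± 7.26 in controls and 104 ± 8.08 at 3.5 g/L (n = 6). At 1 g/L, Angptl4 was the only member called in either direction, with 7.01% of genes called lower and 4.11% higher. Only library 49 at 1 g/L shared the lane of the controls, so lane and dose were largely confounded in that comparison. Both steps between treated doses were called as well, 0.85 ± 0.22 from 1 to 2 g/L (edgeR adjusted p = 0.00834) and 1.03 ± 0.22 from 2 to 3.5 g/L (edgeR adjusted p = 0.00351), where 9.90% and 6.11% of genes were called higher.

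The 2 g/L mice, whose Angptl4 values spread most, were sequenced on 2 lanes. Libraries 73, 74 and 75 of 1 lane held 119.6, 127 and 92.9 CPM, and libraries 76, 77 and 78 of another, which also held all 3.5 g/L libraries, held 38.4, 109 and 42.7 CPM. Without the first 3, which had the lowest totals of the frozen DCA set, the log2 fold change of 2 g/L against 0 was -0.43, and the step from 1 to 2 g/L was 0.39 and no longer called (edgeR adjusted p = 0.310). Within the lane shared by 3 mice at 2 g/L and all at 3.5 g/L, the step between these doses was 1.48 (edgeR adjusted p = 0.0122).

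Igfbp1 rose with DCA. The controls ran from 7.02 to 28.8 CPM with a median of 13.9, and the 1 g/L mice from 15.1 to 62.9 CPM with a median of 33.5. The 2 g/L mice ran from 7.94 to 70.4 CPM with a median of 28.1, and the 3.5 g/L mice from 30.4 to 92 CPM with a median of 59.8. The top dose did not overlap the controls, while the lower doses did, with 3 of 6 mice above every control at each. The log2 fold change at 3.5 g/L was 2.00 ± 0.41 (edgeR adjusted p = 3.83e-04; 3.99-fold, 95% interval 2.21 to 7.18), and mean FPKM went from 10.4 ± 5.30 to 44.9 ± 17.6 (n = 6). The 1 g/L dose missed the threshold at 1.20 ± 0.41 (edgeR adjusted p = 0.0586) and passed it without 4, 49, 74 or 76 (0.0258 to 0.0416) or without 73 to 75 (0.0475). The 2 g/L dose did so at 0.95 ± 0.43 (edgeR adjusted p = 0.101) and passed without 4 (0.0379) or 76 (0.0343). The step from 2 to 3.5 g/L, 1.05 ± 0.41 (edgeR adjusted p = 0.103), passed without 74 (0.0314).

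Fgf21 was close to undetectable in these controls and higher at the top dose. The controls ran from 0.0747 to 0.503 CPM with a median of 0.163, from 20 counts in all, and the 1 g/L mice from 0 to 0.797 CPM with a median of 0.261. The 2 g/L mice ran from 0 to 1.56 CPM with a median of 0.445, and the 3.5 g/L mice from 0.748 to 1.92 CPM with a median of 1.17, from 111 counts. Every mouse at 3.5 g/L lay above every control, while the groups at 1 and 2 g/L overlapped with them. Mouse 50 at 1 g/L and mouse 74 at 2 g/L had no Fgf21 count, which at 3 counts of the total allows up to 0.204 and 0.978 CPM, for counting error only. The log2 fold change was 2.38 ± 0.54 (edgeR adjusted p = 9.92e-04; 5.20-fold, 95% interval 2.4 to 11.3). Fgf21 passed the filter on low counts only through treated libraries, since its controls held 1 to 7 counts each, under the minimum of 10. Its entry into the test thus depended on the values then compared, and the 5.20-fold change rests on few counts. The lower doses were not called, at 0.48 ± 0.64 (edgeR adjusted p = 0.667) and 1.40 ± 0.64 (edgeR adjusted p = 0.101), nor was the step from 2 to 3.5 g/L at 0.98 ± 0.52 (edgeR adjusted p = 0.233), which passed without 77 (1.84, 0.0463).

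Gdf15 also rose at 3.5 g/L, from counts nearly as low. The controls ran from 0.504 to 1.29 CPM with a median of 0.866, from 8 to 18 counts each. The 1 g/L mice ran from 0.193 to 1.33 CPM with a median of 0.345. The 2 g/L mice ran from 0.938 to 2.34 CPM with a median of 1.66, and the 3.5 g/L mice from 0.970 to 4.23 CPM with a median of 1.60. At 1 g/L 5 of 6 mice lay below every control, and at 3.5 g/L 4 of 6 lay above every control. The top-dose log2 fold change of 1.17 ± 0.38 was called (edgeR adjusted p = 0.0141) but not without mouse 97, the highest (0.77, edgeR adjusted p = 0.0828). At 1 g/L the change was -0.84 ± 0.44 (edgeR adjusted p = 0.216), and without mouse 49, the 1 high library of that group, it was -1.44 and called lower (edgeR adjusted p = 0.0223). Library 49 was the only one at 1 g/L on the lane of the controls, so without it lane and dose cannot be told apart. The step from 1 to 2 g/L was called at 1.65 ± 0.45 (edgeR adjusted p = 0.0116), but not without libraries 73 to 75 (1.52, edgeR adjusted p = 0.0648).

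Igfbp2 was not called at any DCA dose. The controls ran from 67.5 to 241 CPM with a median of 176, and the 3.5 g/L mice from 143 to 239.9 CPM with a median of 182. The ranges overlapped almost fully. The log2 fold change at 3.5 g/L was 0.20 ± 0.21 (edgeR adjusted p = 0.447), with a 95% interval from -0.22 to 0.63. At 1 g/L it was -0.37 ± 0.21 (edgeR adjusted p = 0.243), and it was called lower without control 7, the lowest control (-0.53, edgeR adjusted p = 0.0442). At 2 g/L no member was called, where 15.5% of genes were called higher and 13.7% lower. There 2 of the 5 members passed an unadjusted p under 0.05 in edgeR, as did 40.2% of all genes tested.

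Over all 4 dose groups the slope on DCA dose was called for 4 of the 5 members, with 20.5% of genes called upward. It was 0.71 ± 0.14 log2 units per g/L for Fgf21 (edgeR adjusted p = 2.00e-04) and 0.49 ± 0.12 for Igfbp1 (edgeR adjusted p = 0.00142). For Gdf15 it was 0.43 ± 0.12 (edgeR adjusted p = 0.00447), and for Angptl4 0.35 ± 0.08 (edgeR adjusted p = 9.01e-04). Of these 4 members only Fgf21 read higher at every step. From 0 to 1 g/L the log2 change was -0.83 for Angptl4 and, not called, -0.84 for Gdf15. From 1 to 2 g/L it was -0.25 for Igfbp1, not called. Igfbp2 had a slope of 0.09 ± 0.06 (edgeR adjusted p = 0.239).

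**Figure D4:**
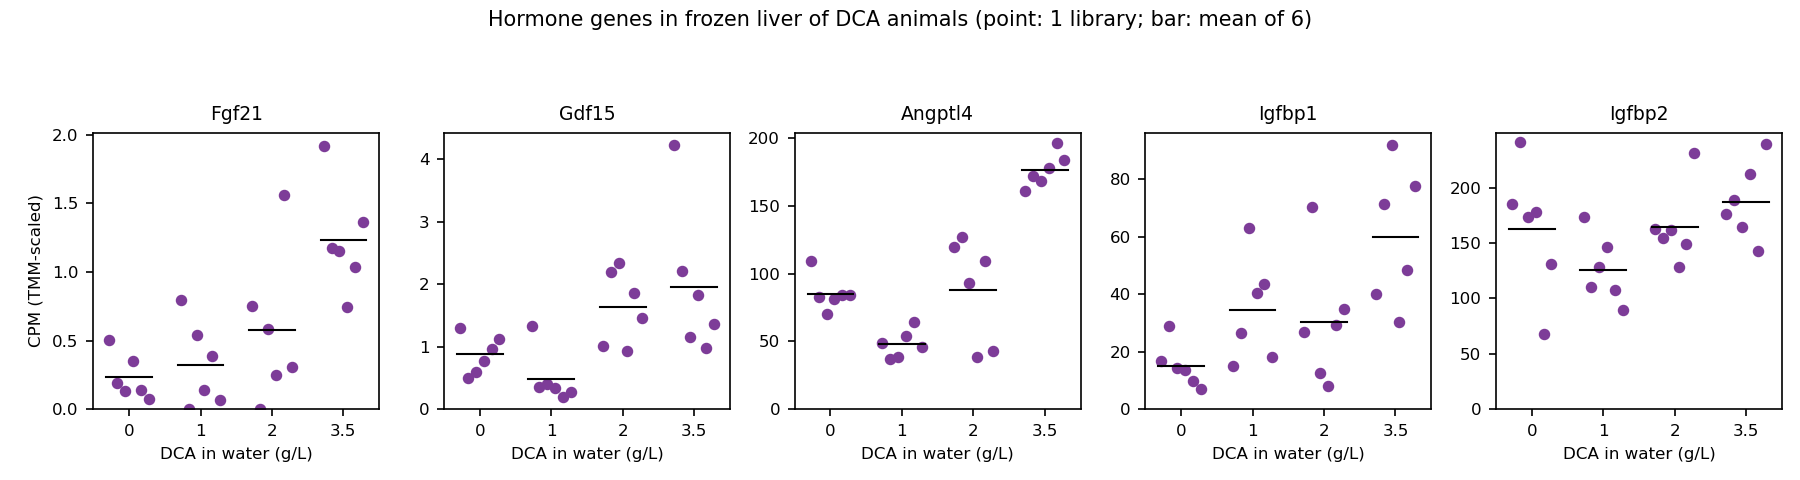
CPM of each member by DCA dose in frozen liver, with 1 point per mouse and a bar at the mean of the 6 mice. At 3.5 g/L every mouse lies above all controls for Angptl4, Igfbp1 and Fgf21, and at 1 g/L every mouse lies below all controls for Angptl4.

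Nr1d1, a clock repressor whose RNA swings over the day in liver, also differed between the DCA controls and the 3.5 g/L mice. Its mean rose from 7.16 ± 1.71 CPM at dose 0 to 74.9 ± 20.0 CPM at 3.5 g/L (SD, n = 6), a log2 change of 3.39 ± 0.21 (edgeR adjusted p = 9.81e-12), and the labels give no hour of collection. Kupffer cell markers summed to 319 to 438 CPM in controls and 169.6 to 259 CPM at 3.5 g/L, with 9 of 11 called lower and none at 0 in either group. Red blood cell markers summed to 500.9 to 1399 CPM and 306 to 617 CPM, with 5 of 5 called lower. Adipocyte markers, of a cell type that also makes Angptl4, summed to 11.7 to 22.1 CPM and 18.8 to 28.5 CPM, with 1 of 2 tested called higher. Of 9 hepatocyte markers 7 were called lower and 1 higher, as were 7 of 10 stellate cell markers lower and none higher. Their part in the member results was not tested.

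A single fit of all frozen libraries compared what DEHP and DCA did at their highest doses, each against its own controls. None of the 5 members was called for the difference, against 13.3% of 13219 genes. The DEHP effect minus the DCA effect was -1.62 ± 0.61 log2 units for Igfbp1 (edgeR adjusted p = 0.0713, 95% interval -2.86 to -0.38), and it passed without DCA control 4 (0.0340) or DEHP mouse 44A (0.0250). For Fgf21 it was -1.49 ± 0.78 (edgeR adjusted p = 0.209, interval -3.07 to 0.09). For Igfbp2 it was 0.60 ± 0.29 (edgeR adjusted p = 0.172, interval 0.01 to 1.20), and it passed without DCA control 7 (0.0374). For Angptl4 it was -0.63 ± 0.44 (edgeR adjusted p = 0.362) and turned to 0.12 without 32A, and for Gdf15 it was 0.53 ± 0.64 (edgeR adjusted p = 0.636). So the members called under 1 chemical and not under the other were not shown to differ between chemicals.

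The paired tissues of the DEHP mice allowed the members to be followed within animals. Each value was taken as its deviation from the mean log2 CPM of its dose and preparation. Angptl4, Igfbp1 and Fgf21 kept the order of the mice across tissues, with Pearson r of 0.939, 0.940 and 0.868 and Spearman rho of 0.921, 0.876 and 0.891 (n = 16, exact two-sided permutation within doses, adjusted p over 5 members 5.65e-04, 5.27e-04 and 0.00297 for r). Without the 2 mice farthest from the median, r was 0.858, 0.881 and 0.780, and over the 12 pairs sequenced in different runs it was 0.959, 0.970 and 0.902. Igfbp2 and Gdf15 had r of 0.135 and 0.175 and rho of 0.215 and 0.285 (exact permutation, adjusted p = 0.630 for both r), and 0.0305 and 0.0421 over the 12 pairs in different runs. Without the 2 farthest mice their r was -0.0576 and 0.438. Without mice 35A and 67C, whose tissues did not pair over all genes, r was 0.868 for Fgf21, 0.952 for Angptl4 and 0.950 for Igfbp1, and 0.292 for Gdf15 and 0.335 for Igfbp2 (n = 14). Adjusted p for rho ran from 4.52e-04 for the first 3 genes to 0.363 for Gdf15 and 0.473 for Igfbp2 by the same exact test.

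**Figure D5:**
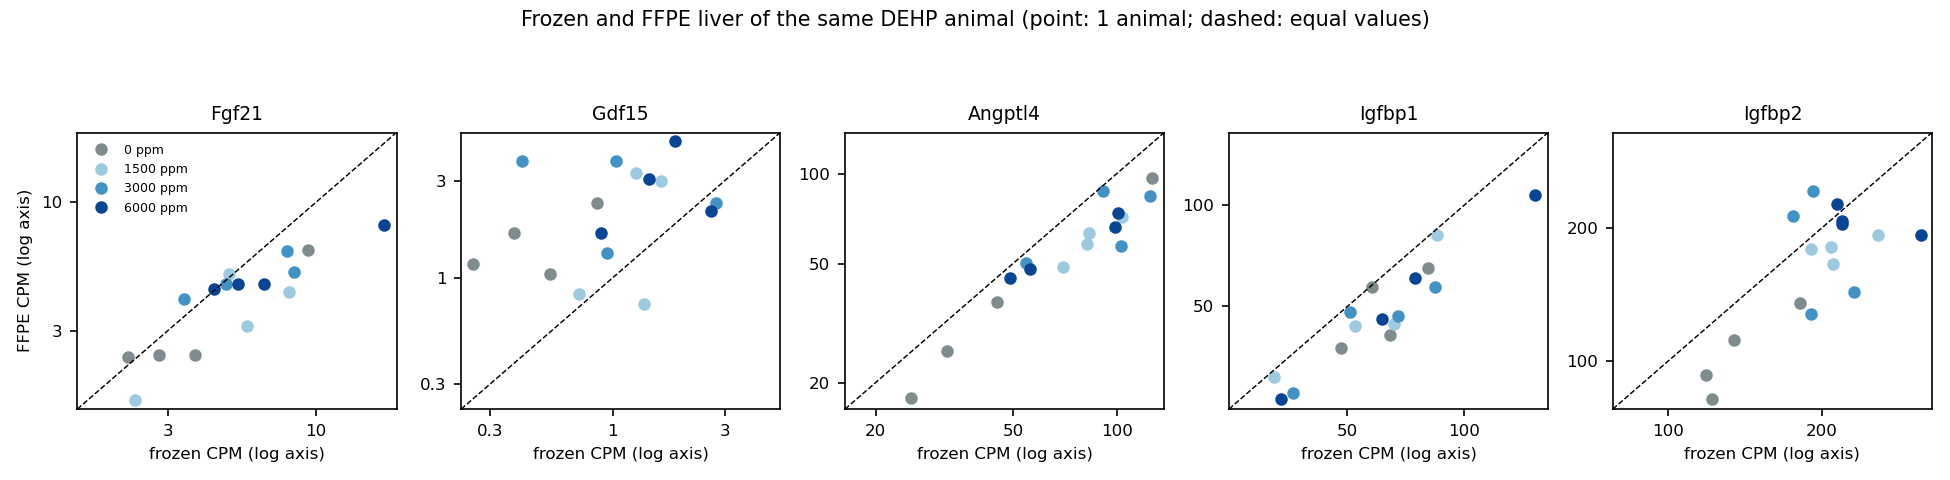
FFPE against frozen CPM of each member in the 16 DEHP mice on log axes, with a point per mouse coloured by dose and the line of equal values. All Angptl4 and Igfbp1 points lie under the line, as do 13 of Igfbp2 and 12 of Fgf21, and most Gdf15 points lie above it.

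In untreated livers the fixed tissue shifted 4 of the 5 members, where 24.9% of 13174 genes were called higher and 24.7% lower in FFPE. With the animal as replicate block, Gdf15 was 3.30-fold higher in FFPE than frozen tissue of the same controls (log2 1.72 ± 0.31, edgeR adjusted p = 2.31e-04). Igfbp2 was lower by -0.29 ± 0.06 (edgeR adjusted p = 7.29e-04), Angptl4 by -0.26 ± 0.06 (edgeR adjusted p = 0.00278) and Igfbp1 by -0.22 ± 0.08 (edgeR adjusted p = 0.0355). The Igfbp1 call was lost without 32A (0.106) or 45C (0.239). Fgf21 read -0.27 ± 0.17 (edgeR adjusted p = 0.198). Without the replicate block only Gdf15 stayed called: Igfbp2 had an edgeR adjusted p of 0.344, Angptl4 of 0.828 and Igfbp1 of 0.543. Angptl4 and Igfbp1 read lower in FFPE tissue in all 16 DEHP mice, Igfbp2 in 13 and Fgf21 in 12, while Gdf15 did so in only 3. Lobes differ between the tissues as well, and lobe and fixation cannot be told apart.

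The effect of DEHP itself was not shown to differ between tissues for any of the 5 members, with an adjusted p of 1 for each at each dose and 0.00% of 14065 genes called by edgeR. At an unadjusted p under 0.05, 254 genes passed at 6000 ppm, none of them a member. At 6000 ppm the FFPE effect minus the frozen effect was 0.21 log2 units for Igfbp2 (95% interval -0.22 to 0.64), 0.03 for Angptl4 (-0.28 to 0.34) and -0.06 for Igfbp1 (-0.36 to 0.25). For Fgf21 it was -0.11 (-0.71 to 0.49), and for Gdf15 it was -0.86 (-2.19 to 0.47), an interval wide enough to hold a loss of the whole frozen effect.

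In FFPE livers of the DCA mice the members were mostly out of reach. Fgf21 had counts in 2 of 24 libraries, both at 1 g/L, and Gdf15 summed to 12, 3, 0 and 3 counts over the 6 libraries at 0, 1, 2 and 3.5 g/L. Igfbp1 summed to 208, 109, 11 and 17 counts. Only Angptl4 and Igfbp2 passed the filter on low counts, and neither was called at any dose, where 0.126%, 0.335% and 0.293% of 4772 genes were called. At 3.5 g/L the log2 fold change was 0.12 ± 1.18 for Angptl4 (edgeR adjusted p = 0.991) and -0.56 ± 0.90 for Igfbp2 (edgeR adjusted p = 0.940), and the 95% interval for Angptl4, from -2.19 to 2.43, holds the 1.05 of frozen liver. All controls and 3 of the 1 g/L libraries shared a sequencing run apart from the rest, and run, depth and the 2 upper doses cannot be told apart. In untreated DCA livers, where 8.26% of 11991 genes were called, Angptl4 was -1.01 ± 0.32 in FFPE against frozen tissue (edgeR adjusted p = 0.0622), and this passed without mouse 3 (0.0234). Igfbp2 was -0.52 ± 0.19 (edgeR adjusted p = 0.112), and Igfbp1 was -0.32 ± 0.84 (edgeR adjusted p = 0.848).

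The genes around the members were counted in lists at the top dose in frozen liver, to be read against the 7.05% of all genes called higher and 4.72% lower under DEHP, and 21.9% higher and 21.1% lower under DCA. PPAR alpha targets, among them classic inducers of fatty acid oxidation, were called higher in 14 of 15 under DEHP and in 14 of 15 under DCA, with median log2 fold changes of 2.29 and 2.09 beside -0.03 and -0.02 over all genes tested. The DEHP count was 11 with DESeq2 and 13 with only the 2 groups compared, while the DCA count stayed at 14. Ehhadh, an enzyme of peroxisomal fatty acid oxidation, rose by 5.77 ± 0.51 with DEHP (edgeR adjusted p = 4.47e-06) and by 5.24 ± 0.36 with DCA (edgeR adjusted p = 5.26e-11), and the fatty acid transporter Cd36 by 4.52 ± 0.38 and 2.09 ± 0.32. Cyp4a14 rose by 7.61 ± 1.05 and 10.08 ± 0.73. At the top dose all mice of both chemicals lay above all their controls for these 3 genes. In the livers where these rose, Angptl4, a classic PPAR target, read 0.41 ± 0.40 under DEHP and 1.05 ± 0.21 under DCA. The DEHP value rests on control 32A, without which it was 1.18 (edgeR adjusted p = 0.0140).

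Of 7 receptor genes tested, 2 were called lower and none higher under DEHP (background 4.72% and 7.05%), and 3 lower and 2 higher under DCA (background 21.1% and 21.9%), with medians of -0.28 and -0.04. Fgfr4, the main FGF receptor of hepatocytes, was called lower in both sets, at -0.60 ± 0.18 under DEHP (edgeR adjusted p = 0.0396) and -1.02 ± 0.12 under DCA (edgeR adjusted p = 2.32e-07). Fgfr3 fell by -0.92 ± 0.20 and -0.85 ± 0.12. The DEHP count was 1 without 63A, 75A, 60A, 72B, 35A, 71A, 9A, 44A, 64C or 8C. The Fgfr4 call under DEHP was lost without 32A, 63A, 75A, 60A, 72B, 35A, 71A, 9A, 44A, 64C or 8C (edgeR adjusted p 0.0512 to 0.175). With sequencing run as a term neither receptor was called (0.151 and 0.0649).

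Of 9 genes of the insulin-like growth factor system, whose ligands IGFBP1 and IGFBP2 bind, 4 were called lower under DEHP and 7 under DCA, and none was called higher, with medians of -0.66 and -0.46. Igf1, the circulating growth factor, fell by -1.02 ± 0.20 (edgeR adjusted p = 0.00379) and -0.45 ± 0.14 (edgeR adjusted p = 0.0113). Ghr, the growth hormone receptor that drives Igf1, fell by -0.71 ± 0.12 and -0.45 ± 0.09. Igfals, which stabilises circulating complexes of the factor, fell by -1.20 ± 0.20 under DCA (edgeR adjusted p = 2.74e-05), and Igf2, the fetal growth factor, by -3.35 ± 0.52 (edgeR adjusted p = 1.29e-05). The DEHP count was 2 without 63A, 44A or 8C, and under DCA 1 gene was called higher without control 5.

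Of 11 genes of lipoprotein lipase and its regulators, the system that ANGPTL4 acts on, 2 rose and 2 fell under DEHP (background 7.05% and 4.72%), and 4 rose and 4 fell under DCA (background 21.9% and 21.1%). Lpl itself rose by 1.35 ± 0.26 (edgeR adjusted p = 0.00239) and 0.51 ± 0.16 (edgeR adjusted p = 0.0109). The lipase inhibitor Apoc3 fell by -0.57 ± 0.14 (edgeR adjusted p = 0.0146) and -0.44 ± 0.09. Under DCA the lipase activator Apoc2 rose by 0.79 ± 0.07 (edgeR adjusted p = 1.53e-09), and Lmf1, needed to fold the lipase, fell by -0.67 ± 0.08 (edgeR adjusted p = 1.17e-07). Leaving out libraries moved the DEHP counts: 1 gene was called higher without 45C, 63A, 75A, 44A, 64C or 8C, and none was called lower without 45C or 64C, where Apoc3 was lost (edgeR adjusted p 0.0540 and 0.0508). Without 75A, 40A, 60A, 71A, 9A, 44A or 8C, 1 was called lower. With sequencing run as a term Lpl had an edgeR adjusted p of 0.0514 and Apoc3 of 0.263.

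Genes of the integrated stress response, the pathway known to drive Fgf21 and Gdf15, were called in small numbers in each direction. Of 16 tested under DEHP 2 were called higher and 1 lower (background 7.05% and 4.72%), and of 13 under DCA 4 higher and 3 lower (background 21.9% and 21.1%), with medians of -0.29 and 0.06. Trib3, a target of ATF4 and CHOP, read 1.19 ± 0.50 (edgeR adjusted p = 0.142) and 0.06 ± 0.27. Under DCA the stress factor Atf3 rose by 2.44 ± 0.26 (edgeR adjusted p = 4.29e-08), while Chac1, another ATF4 target, fell by -3.46 ± 0.54 (edgeR adjusted p = 1.54e-05). Under DEHP Vldlr, a lipoprotein receptor, rose by 3.38 ± 0.70 (edgeR adjusted p = 0.00430) and Atf5 fell by -0.66 ± 0.16 (edgeR adjusted p = 0.0108). The DEHP counts moved to 1 higher without 32A, 63A, 75A, 71A, 44A or 8C and to 2 lower without 32A, 75A or 40A, and Atf5 was not called with run as a term (edgeR adjusted p = 0.0513).

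Of 14 insulin, FoxO and fasting genes, the setting in which Igfbp1 is best known, none was called under DEHP. There 1 was lower at an unadjusted p under 0.05 in edgeR, which 25.9% of all genes passed in either direction. Under DCA 4 rose and 7 fell, and the medians were -0.23 under DEHP and -0.21 under DCA. Pck1, a gluconeogenic enzyme repressed by insulin like Igfbp1, read -0.69 ± 0.45 under DEHP (edgeR adjusted p = 0.377) and fell by -1.16 ± 0.18 under DCA (edgeR adjusted p = 1.225e-05), in the livers where Igfbp1 rose. Srebf1, an insulin-induced lipogenic factor, rose by 1.19 ± 0.24 under DCA (edgeR adjusted p = 2.41e-04).

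Of the transcription factors named for the members, 1 of 14 was called under DEHP, higher (background 7.05%), and 5 of 13 were higher and 3 lower under DCA (background 21.9% and 21.1%). The 1 was Nfe2l2, the oxidative stress factor, at 0.86 ± 0.21 (edgeR adjusted p = 0.0130), and under DCA it rose by 1.48 ± 0.12 (edgeR adjusted p = 1.12e-09). Under DEHP the count was 2 without 32A or 29B and 0 without 8C, where Nfe2l2 was lost (edgeR adjusted p = 0.0598), as it was with only the 2 groups compared (0.0501) and with run as a term (0.0820). Of 18 other secreted liver proteins with metabolic roles, 7 fell and none rose under DEHP, and 10 fell and 3 rose under DCA, with medians of -0.43 and -0.66, a direction opposite to that of the members called. With run as a term the DEHP count was 3, and under that setting no receptor gene was called lower and no lipoprotein lipase gene was called in either direction. Serpina12 (vaspin, an insulin-sensitising serpin) fell by -4.08 ± 0.73 and -4.51 ± 0.39. Ahsg (fetuin-A) fell by -1.02 ± 0.15 and -0.66 ± 0.12, and Fetub (fetuin-B) by -0.75 ± 0.18 and -1.19 ± 0.08, the former not called with run as a term (edgeR adjusted p = 0.224). Albumin read -0.18 ± 0.16 (edgeR adjusted p = 0.546) and -0.45 ± 0.11 (edgeR adjusted p = 0.00166).

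Across the frozen libraries of each study the genes most like each member were found by Pearson correlation of log2 CPM, a description in which libraries share doses. In the 16 DEHP libraries Angptl4 was most like Gsto1 (r = 0.947), Slc25a34 (0.906) and Lgals4 (0.902), and Igfbp2 most like Agpat3 (0.930), Mlycd (0.907) and Fitm1 (0.907). Gdf15 was most like Coasy (0.892), Ppp1ca (0.878) and Coq9 (0.873), and Fgf21 most like Gpihbp1 (0.822), Vipas39 (0.821) and Rps19 (0.814). Igfbp1 had the weakest partners, Hmmr (0.793), Wbscr22 (0.790) and Tbc1d7 (0.702). In the 24 DCA libraries Angptl4 was most like Lpin2 (0.912), Ctif (0.897) and again Slc25a34 (0.891), and Gdf15 most like Agpat3 (0.903), Pik3ap1 (0.881) and Tenc1 (0.865). Fgf21 was most like Bri3 (0.835), Fan1 (0.778) and Snapc4 (0.768), Igfbp1 most like Ppp6c (0.785), Zfp938 (0.776) and Orc5 (0.765), and Igfbp2 most like Preb (0.752), Ick (0.736) and Ppp2r5b (0.704). Among the members themselves, r in the DEHP libraries was highest for Fgf21 with Gdf15 at 0.715 and lay between -0.141 and 0.104 for Igfbp1 with the other 4. In the DCA libraries it ran from 0.0807 for Gdf15 with Igfbp1 to 0.616 for Gdf15 with Angptl4.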

How the data were processed

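The deposited tables hold RSEM expected counts per gene and library, and FPKM values the authors made alongside them. Per the submitters' processing notes, CASAVA, STAR 2.4, RSEM and build mm10 were used, and the labels' protocols name a stranded total RNA kit with depletion of ribosomal RNA. The expected counts were rounded, filtered with filterByExpr (minimum count 10), scaled by TMM and fitted with edgeR 4.0.16 in R 4.3.3, with limma 3.58.1, 1 fit for each chemical and preparation. Genes were called at a Benjamini-Hochberg adjusted p under 0.05 over all genes tested, by the quasi-likelihood test, and the scripts were tested on simulated data.

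Paired tissues of an animal entered with the animal as replicate block. Within doses, frozen and FFPE deviations of the same DEHP animal had a median r of 0.465 over 13445 genes, and 14 of 16 animals were over 0.1. In DCA animals the median was 0.0378 over 4761 genes, with 7 of 24 over 0.1. The animal numbers come from the labels. Labels do not say whether mice shared cages.

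Alternatives were DESeq2 1.42.0, its size factors, other filters, only the groups compared, another deposited table of estimated counts, sequencing run as a term and each library left out. The members and lists were chosen with earlier results of these data known. Besides the members, the text names the 2 called genes of smallest adjusted p in each list and chemical, Alb, Cyp4a14, Trib3 and Pck1, and the 3 genes most correlated with each member among genes whose log2 CPM averaged 2 or more. A gene that this rule names is not reported here. Deposited RPKM tables were not used.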

Additional observations from a re-analysis of the deposited data

Results flagged for a closer look

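In 10 of 76 groups of 4 or 6 libraries, the highest library of a member lay so far from the nearest that the gap took an unusual share of the group's range by Dixon's test, which by chance flags about 1 group in 20. In DEHP liver, mouse 8C at 6000 ppm was high for Fgf21 in frozen tissue (17.4 CPM, gap 0.830 of the range) and in FFPE tissue (8.08 CPM, 0.943), and for Igfbp2 in frozen tissue (313 CPM, 0.954). Control 32A was high for Fgf21 in FFPE tissue (6.39 CPM, 0.984). In frozen DCA liver, Gdf15 was high in mouse 49 at 1 g/L (1.33 CPM, 0.812), Angptl4 in control 3 (109.5 CPM, 0.631) and Igfbp2 in mouse 78 at 2 g/L (231 CPM, 0.669). In FFPE DCA liver, mouse 54 at 1 g/L was high for Gdf15 (9.34 CPM, 1.000) and Angptl4 (65.4 CPM, 0.675), and mouse 97 at 3.5 g/L was high for Gdf15 (3.30 CPM, 1.000). In both FFPE groups flagged for Gdf15 a single library held all 3 counts.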

How the results depend on the processing

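The calls at the top doses of Igfbp2 (DEHP, both tissues) and of Fgf21, Angptl4 and Igfbp1 (DCA, frozen) held under every setting run. For DCA the term for run was no check on this comparison, since its controls and 3.5 g/L libraries shared a run. No setting could address their different lanes. Under the main filter, Fgf21 entered the DCA fit only through treated libraries. The Gdf15 call at 6000 ppm in frozen liver was lost with the other deposited table (1.5, edgeR adjusted p = 0.0648) and with a term for sequencing run (1.70, edgeR adjusted p = 0.161). In frozen DEHP liver few treated libraries shared a run with controls, so the term for run is a weak check there. With run as a term Igfbp1 at 6000 ppm in FFPE liver read -0.10, and 2 members were called at 1500 ppm and 1 at 6000 ppm in frozen liver. The other table gave 1 called at 6000 ppm, with only the 2 groups compared 0 at 3000 ppm in FFPE liver, and without libraries 73 to 75, a setting chosen after seeing the data, 2 at 1 g/L DCA. The cause was not tested.

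Signs turned in these results. Angptl4 read -0.0172 for 3.5 g/L in FFPE liver with no filter, -0.43 for 2 g/L without libraries 73 to 75, and for the tissue difference at 6000 ppm -0.0180 with no replicate block and -0.00355 without mice 35A and 67C. With run as a term Fgf21 at 1500 ppm in FFPE liver read -0.21 and Igfbp1 in frozen liver 0.17, and the other table gave 0.12 for the latter. Gdf15 from 1500 to 3000 ppm read -0.0122 with the title number as replicate block. Igfbp1 at 1500 ppm in FFPE liver read -0.00712 (DESeq2), -0.00494 (its size factors), -0.00560 (no filter), -1.24e-04 (only 2 groups), -0.0424 (other table) and -0.00288 (stricter filter). Igfbp2 in FFPE DCA liver read -0.78 at 1 g/L within the controls' run, and 0.34 and 0.33 at 3.5 g/L with DESeq2 and its size factors. With no replicate block the untreated tissue differences of Angptl4 (-0.25), Igfbp1 (-0.21) and Igfbp2 (-0.28) were not called.

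Leaving out each library gave these log2 ranges. In DEHP frozen liver at 6000 ppm they were 0.18 to 1.18 for Angptl4, 0.26 to 1.53 for Fgf21, 1.41 to 2.09 for Gdf15 and -0.15 to 0.62 for Igfbp1, and in FFPE liver 0.11 to 1.11 for Angptl4, 0.45 to 1.20 for Fgf21 and -0.18 to 0.50 for Igfbp1. Gdf15 at 3.5 g/L DCA ran from 0.77 to 1.32. At 1500 ppm the frozen ranges were -0.0674 to 0.85 (Fgf21) and -0.32 to 0.11 (Igfbp1), with -0.28 to 0.10 for Igfbp1 at 3000 ppm, and the FFPE ranges -0.18 to 0.54 (Fgf21), -0.0534 to 0.61 (Gdf15) and -0.35 to 0.17 (Igfbp1), with -0.29 to 0.0116 for Igfbp1 at 3000 ppm. From 1500 to 3000 ppm they were -0.0371 to 0.33 (Angptl4), -0.0257 to 0.49 (Fgf21), -0.64 to 0.36 (Gdf15) and -0.21 to 0.24 (Igfbp1), and from 3000 to 6000 ppm -0.17 to 0.67 (Fgf21) and -0.0733 to 0.69 (Igfbp1). Tissue differences at 6000 ppm ran from -0.0358 to 0.11 (Angptl4), -0.26 to 0.14 (Fgf21) and -0.17 to 0.0484 (Igfbp1). In frozen DCA liver the ranges were -0.11 to 0.18 (Angptl4) and -0.14 to 0.16 (Igfbp2) at 2 g/L, -0.61 to 0.0134 for Igfbp1 from 1 to 2 g/L, -0.0399 to 0.48 for Gdf15 from 2 to 3.5 g/L, and -0.20 to 0.21 for Trib3 at 3.5 g/L. In FFPE DCA liver they were -0.56 to 0.49 for Angptl4 at 3.5 g/L and -0.27 to 0.38 for Igfbp2 at 1 g/L, with -0.75 to 0.13 for Igfbp1 between untreated tissues. The DEHP minus DCA effect of Angptl4 ran from -0.88 to 0.12. Members called numbered 1 to 3 and 0 to 1 at 1 and 2 g/L DCA, 0 to 2, 0 to 2 and 1 to 3 by dose in DEHP frozen and 0 to 2, 1 to 3 and 1 to 3 in DEHP FFPE liver.

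The other deposited table lacked mouse 40A in DEHP frozen liver and was incomplete for DCA FFPE. Gdf15 rested on few counts in every set, as did all members in FFPE DCA liver at 2 and 3.5 g/L.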
